A study of Homo sapiens with 6 samples.

Results

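The genes of the cytosolic and mitochondrial chaperones, 36 of the 19498 genes measured, were followed in 6 RNA libraries of K562 cells. The 36 genes were taken by name, and the list was chosen with earlier results of these data known. By class they were 7 of the HSP70 and HSP110 family, 6 of HSP90 and its co-chaperones, 1 small heat shock protein and 2 of the mitochondrial chaperonin. The rest were 8 DNAJ genes, 8 subunits of the CCT chaperonin, 3 BAG genes and the transcription factor gene HSF1. All 36 were present and passed the filter on low values, and none was listed at 0 in any library. K562, an established human line, was grown out of chronic myeloid leukaemia cells and depends on the fusion kinase BCR::ABL1. The study set 3 biological replicates labelled ACK KO against 3 labelled WT, all cultured in RPMI with 10% FBS and glutamine and collected alongside samples for CUT&RUN. ACK, the product of TNK2, is a cytosolic tyrosine kinase and a Cdc42 effector, and the question was how its loss bears on genes controlled by STAT5, a transcription factor active downstream of BCR::ABL1. The labels give neither the edit nor a clone, so effects of the genotype cannot be told apart from those of the line or clone. Both groups share the fusion kinase and the culture, and no stress or drug is named for either.

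Chaperones bind proteins that are not yet folded, or no longer folded, and help them reach or keep their shape. HSP70 proteins bind short stretches of unfolded chains in a cycle that DNAJ proteins start and nucleotide exchange factors such as HSP110 and BAG proteins end, HSP90 takes over clients such as kinases with the help of co-chaperones, and the ring-shaped CCT chaperonin folds actin and tubulin. Some of these genes are made at all times, and others are switched on by HSF1 when proteins misfold, through heat shock elements in their promoters, where short units GAA and TTC alternate.

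The values are normalised read counts, gene by gene, and a library's values summed to 43.5 M to 49.5 M under the label ACK KO and to 46.7 M to 53.3 M under WT. The reads behind a value are unknown, so errors are the spread between libraries, and the labels do not say whether replicates came from separate cultures. TNK2 had 741, 506 and 598 in the libraries labelled ACK KO, against 829.7, 613 and 642 in WT libraries (log2 difference -0.18, adjusted p = 0.681, limma), so its mRNA does not check the genotype labels. The 10 K562 and erythroid marker genes looked at were present, with sums of 92402 to 132982 in ACK KO libraries and 81097 to 135312 in WT libraries. Single genes of that list moved in opposite directions. HBE1 had 9391, 10443 and 17322 in ACK KO, against 1387, 1031 and 1527 in WT. GATA1 had 6980, 7030 and 6863 in ACK KO, against 9877, 8842 and 8921 in WT. Sums of the 4 lymphoid markers in the file were 1002 to 1778 in ACK KO libraries and 509 to 1806 in WT libraries. Sums of the 3 fibroblast markers in the file were 88.2 to 217 in ACK KO libraries and 14.2 to 35.3 in WT libraries, and those of 5 epithelial markers 24724 to 32740 in ACK KO libraries and 15109.5 to 21376 in WT libraries; their part in the differences below was not tested. In bulk RNA, fewer cells of one kind and less RNA per cell cannot be told apart. Replicate 1 of both genotypes stood apart from replicates 2 and 3; the meaning of the numbers is not given, so comparisons are shown by number as well.

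A pair of features ran through the chaperone genes across the 6 libraries, as the heat map shows: most were lower in replicate 1 than in replicates 2 and 3, and most were somewhat lower in ACK KO than in WT within each number. Together the 36 genes took 1.18%, 2.2% and 1.94% of the summed values in ACK KO replicates 1 to 3, against 1.68%, 2.49% and 2.25% in WT replicates 1 to 3. Within each genotype the share was lowest in replicate 1, and within each number it was lower in ACK KO.

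**Figure D1:**
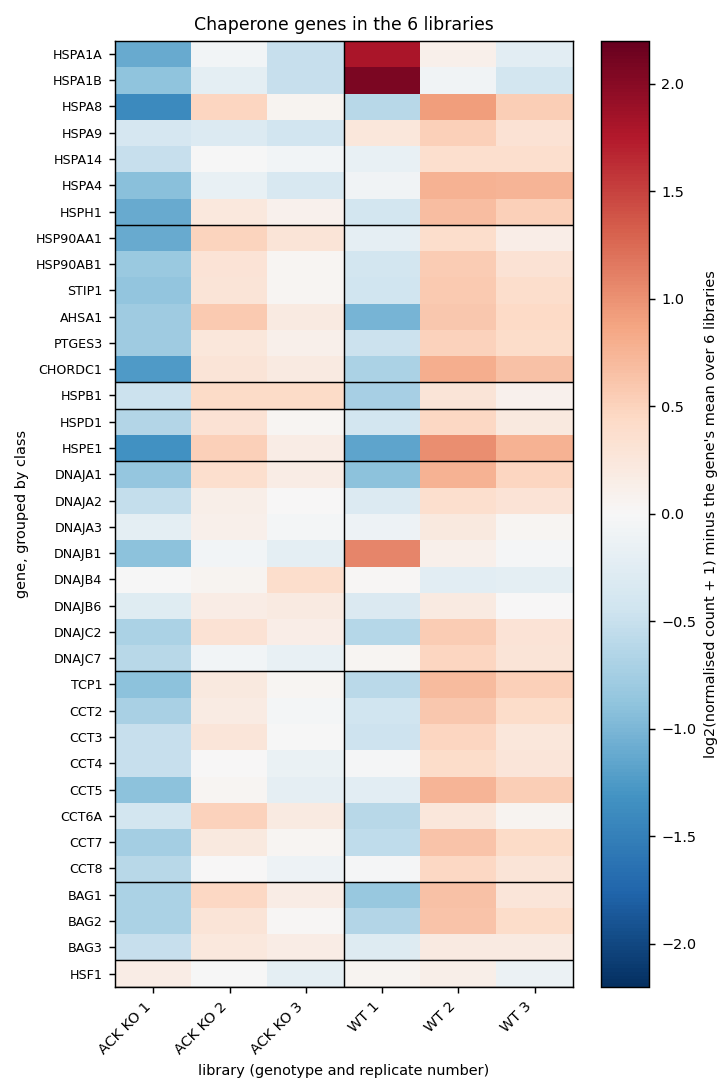
Each row is 1 of the 36 chaperone genes, grouped by class between the black lines, and each column 1 library, with the ACK KO libraries left of the WT libraries; colour gives log2(normalised count + 1) minus the gene's mean over the 6 libraries. Most rows are blue in replicate 1 of both genotypes, while HSPA1A, HSPA1B and DNAJB1 are red in WT replicate 1.

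In ACK KO against WT, 32 of the 36 genes had a log2 difference below 0, with a median of -0.32 beside -0.02 over the 16658 genes tested. Only 1 of the 36 was called lower and 0 higher at an adjusted p of 0.05 (limma on log2(value + 1)), where 4.96% of all tested genes were called lower and 5.37% higher (10.3% in either direction). At an unadjusted p under 0.05 there were 3, where 23.8% of all tested genes were. The replicate numbers could be treated as pairs, and with the number as a block 20 of the 36 were called lower and 2 higher, where 20% and 19.7% of all tested genes were. Libraries of equal sum ended this blocked call for HSPD1, DNAJA2 and BAG2 (adjusted p = 0.291, 0.105 and 0.169, limma). Within each number, 26 of the 36 were lower in ACK KO in all 3 pairs, where 34% of all tested genes were, and 2 were higher in all 3, where 31.8% were. The ACK KO values lay below every WT value for 4 genes, HSPA9, HSPA4, DNAJB1 and DNAJC7, where 14.7% of tested genes did so, and above every WT value for 0, where 15.2% did.

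The median of the 36 differences was -0.29 in replicate 1, -0.25 in replicate 2 and -0.30 in replicate 3. Over all libraries without the block, 16 of the 36 genes changed sign in at least 1 fit without 1 library. The median was -0.01 without ACK KO replicate 1, -0.56 without WT replicate 1, -0.11 without WT replicate 2, -0.52 without ACK KO replicate 2, -0.21 without WT replicate 3, and -0.27 without both replicate 1 libraries. Position on the chromosomes moved with the difference as well. The 693 tested genes of chromosome 5 had a median log2 difference of -0.62 and the 834 of chromosome 7 one of 0.39. Of the 36, HSPA9, HSPA4 and CCT5 lie on chromosome 5 and HSPB1, DNAJB6, DNAJC2 and CCT6A on chromosome 7, and the part of position in their differences was not tested. The 29 genes on other chromosomes had differences from -1.13 to 0.29, with a median of -0.33, so the lower values were not confined to chromosome 5.

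**Figure D2:**
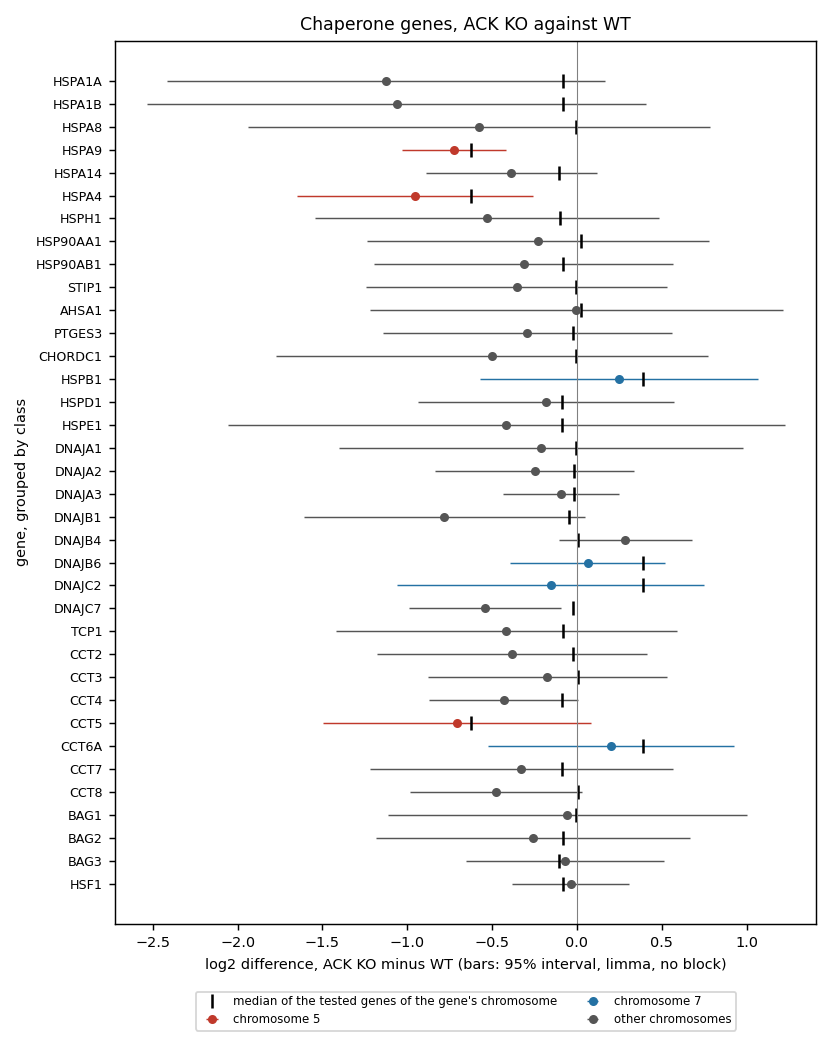
Log2 difference in normalised count between ACK KO and WT (x axis, ACK KO minus WT, n = 3 each) for the 36 chaperone genes, with 95% intervals of the unblocked limma fit; black ticks give the median of all tested genes of the gene's chromosome. Of the chromosome 5 genes, HSPA9 (-0.72) and CCT5 (-0.71) lie near the tick of their chromosome at -0.62 and HSPA4 (-0.96) lies left of it, and 32 of 36 points lie left of 0.

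Replicate 1 against replicates 2 and 3, with genotype as a covariate, separated the genes further. Of the 36, 30 were called lower in replicate 1 and 0 higher (limma, adjusted p), where 23.4% of all tested genes were called lower and 21.9% higher. The median log2 difference was -0.81, beside 0.03 over all tested genes, and it was -0.81 within ACK KO and -0.82 within WT. Falls of at least 2-fold were called for 9 of the 36, where 3.91% of tested genes had one. Both replicate 1 values lay below all 4 values of replicates 2 and 3 for 26 of the 36, where 23.3% of tested genes did so, and above them for 0, where 20% did. In each of 6 fits that left out 1 library, 26 of the 36 were called lower. The exceptions to the fall were HSPA1A, HSPA1B, HSPA9, DNAJB1, DNAJB4 and HSF1, which were not called. With libraries scaled to an equal sum, the median over all tested genes became 0.18 and that of the chaperone genes -0.66, and 29 were called lower and 1, HSF1, higher. What set replicate 1 apart is not given in the labels, and any difference in culture, day or handling between the numbers cannot be told apart.

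**Figure D3:**
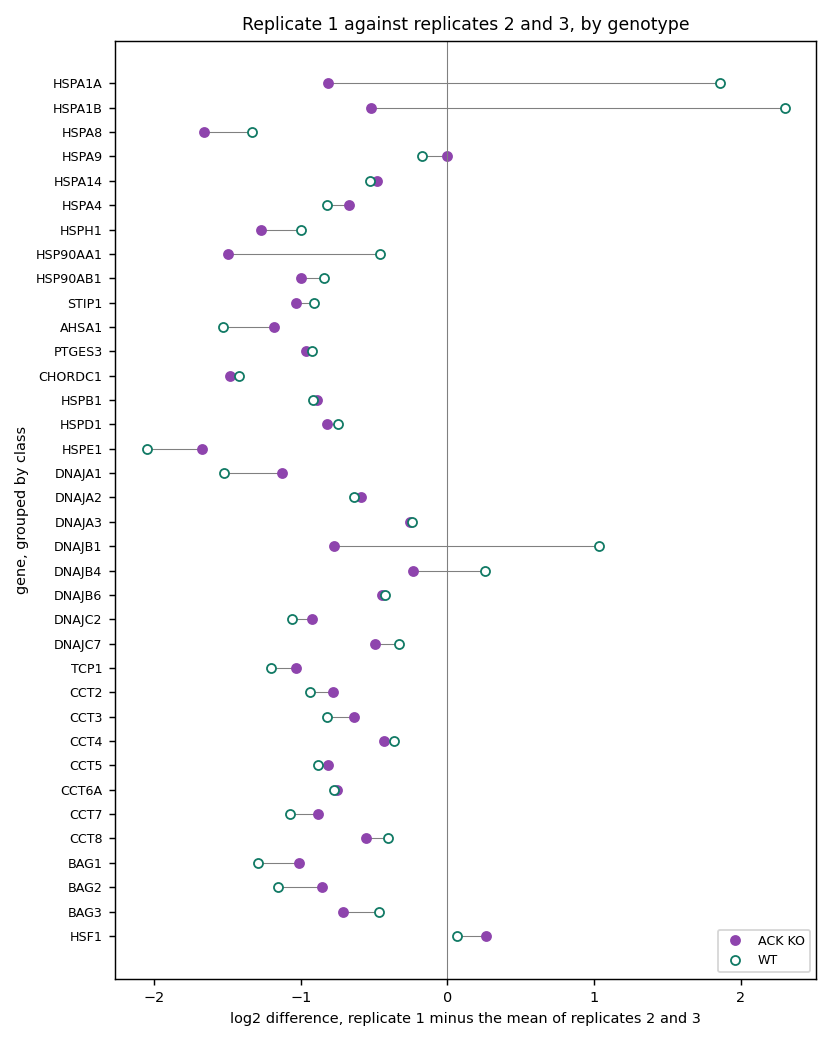
Log2 difference between replicate 1 and the mean of replicates 2 and 3 (x axis), for each of the 36 chaperone genes, within ACK KO (filled) and within WT (open), 1 library against 2 in each. Most pairs of points sit together left of 0. HSPA1A, HSPA1B and DNAJB1, and by less DNAJB4, lie left of 0 in ACK KO and right of 0 in WT.

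The inducible HSP70 genes HSPA1A and HSPA1B and their partner gene DNAJB1 had an order of libraries of their own. HSPA1A and HSPA1B encode the same stress-inducible HSP70 protein, and DNAJB1 encodes the inducible HSP40 that starts its cycle. All 3 were highest in WT replicate 1 and lowest in ACK KO replicate 1. Their promoters, where HSF1 is known to act, are printed here with the upstream bases of 2 genes that moved differently, the constitutive HSPA8 and HSP90AB1. Sequences are from RefSeq (GRCh38.p14), each starting 250 bases before a RefSeq start and cut where an annotated exon of the gene begins in that window. The stretches of DNAJB1, HSPA8 and HSP90AB1 lie within the annotated gene, before a start inside it. Matches to a heat shock element are in capitals: the units GAA and TTC in alternation, in either order, with 2 bases of any kind (N) between neighbouring units. Shown are 2-unit matches in HSPA1A, HSPA1B and DNAJB1, and 3-unit matches in HSPA8 and HSP90AB1. A further 3-unit match of HSPA8 lies in the cut part of its window and is not printed. DNAJB1 and HSP90AB1 have other windows, not printed, and these held no match of 2 or 3 units. HSPA1A lies at chr6:31815293-31815463 (plus strand), HSPA1B at chr6:31827488-31827734 (plus strand), DNAJB1 at chr19:14518421-14518647 (minus strand), HSPA8 at chr11:123062336-123062386 (minus strand) and HSP90AB1 at chr6:44247693-44247865 (plus strand).
HSPA1A: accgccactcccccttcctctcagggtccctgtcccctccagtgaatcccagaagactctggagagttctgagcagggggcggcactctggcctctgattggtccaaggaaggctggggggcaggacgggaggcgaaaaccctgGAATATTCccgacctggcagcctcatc
HSPA1B: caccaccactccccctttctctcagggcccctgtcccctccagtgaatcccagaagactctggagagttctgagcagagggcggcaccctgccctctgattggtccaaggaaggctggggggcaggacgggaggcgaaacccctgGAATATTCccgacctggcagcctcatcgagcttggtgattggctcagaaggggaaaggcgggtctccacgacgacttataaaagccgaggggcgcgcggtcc
DNAJB1: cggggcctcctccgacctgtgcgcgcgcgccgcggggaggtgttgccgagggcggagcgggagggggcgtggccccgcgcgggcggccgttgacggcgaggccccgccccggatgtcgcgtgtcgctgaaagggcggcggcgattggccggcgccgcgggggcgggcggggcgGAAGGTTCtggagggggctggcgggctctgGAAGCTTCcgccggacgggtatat
HSPA8: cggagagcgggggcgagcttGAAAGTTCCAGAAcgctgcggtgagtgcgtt
HSP90AB1: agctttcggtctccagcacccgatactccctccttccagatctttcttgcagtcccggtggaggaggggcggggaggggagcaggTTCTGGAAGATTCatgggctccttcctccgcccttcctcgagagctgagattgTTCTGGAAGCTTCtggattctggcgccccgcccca

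The 2-unit match began 106 bases upstream of the RefSeq start in HSPA1A and 105 in HSPA1B, and DNAJB1 had a pair, at 77 and 47 bases. An alignment of the 250 bases upstream of HSPA1A and of HSPA1B paired 235 identical bases. Over 250 upstream bases, read on both strands, 3 units were found for 6 of the 33 chaperone genes with a promoter in the table (18.2%). These 6 were HSPD1, HSP90AB1, DNAJB6, CHORDC1, HSPA8 and HSP90AA1. A gene was counted if any of its windows held a match. Of all 27305 genes with a window 0.557% held 3 units, and of the 11152 tested ones 0.439%. The 2-unit element, which each 3-unit match also contains, was found for 15 of the 33 (45.5%), beside 14.0% of all genes and 11.8% of tested ones. All 6 genes with 3 units were called lower in replicate 1, as were 30 of all 36 chaperone genes and 23.4% of all tested genes. Of the 6 genes not called there, HSPA1A, HSPA1B, DNAJB1 and DNAJB4 had a 2-unit match, HSPA9 had none and HSF1 had no window. A match describes these letters and does not show that HSF1 was bound.

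HSPA1A (chr6:31815464-31817946, plus strand in GRCh38) had 6279, 12900.0 and 9489 in ACK KO replicates 1 to 3, against 47163, 14644 and 11551 in WT replicates 1 to 3. The neighbouring HSPA1B (chr6:31827735-31830255, plus strand) had 5960.1, 9491 and 7733 in ACK KO and 45914, 10433 and 8332 in WT. DNAJB1 (chr19:14514770-14529770, minus strand) had 3094, 5594 and 5009 in ACK KO and 12287, 6280.4 and 5712 in WT. In all 3 genes WT replicate 1 was the highest library and ACK KO replicate 1 the lowest, while replicates 2 and 3 of the genotypes lay close to each other. The difference between the genotypes was -2.91 on the log2 scale in replicate 1, -0.18 in replicate 2 and -0.28 in replicate 3 for HSPA1A. For HSPA1B the same pairs gave -2.95, -0.14 and -0.11, and for DNAJB1 -1.99, -0.17 and -0.19. None of these genes was called in ACK KO against WT, with adjusted p of 0.272, 0.368 and 0.236 in that order, or of 0.104, 0.137 and 0.0993 with the block (limma). With the block and without both replicate 1 libraries, HSPA1A (-0.23, adjusted p = 0.00210, limma) and DNAJB1 (-0.18, adjusted p = 0.0189, limma) were called lower in ACK KO and HSPA1B was not. That fit called 7906 of the 16658 tested genes, and 25 chaperone genes lower and 4 higher.

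Replicate 1 differed from replicates 2 and 3 by -0.82 in ACK KO and by 1.86 in WT for HSPA1A, on the log2 scale. For HSPA1B the values were -0.52 in ACK KO and 2.30 in WT, and for DNAJB1 -0.77 in ACK KO and 1.04 in WT. Over both genotypes the replicate 1 difference was 0.52, 0.89 and 0.13 in that order, with no call. That value is the mean of the opposite values within the genotypes, so leaving out either replicate 1 library gives the other genotype's value. A test of the difference between the genotypes called 5 of the 16658 genes (0.03%), and 2 of the 5 were chaperone genes: HSPA1B, with -2.82 (SE 0.24, adjusted p = 0.0380, limma), and DNAJB1, with -1.81 (SE 0.17, adjusted p = 0.0439, limma). HSPA1A ranked 7 of all tested genes, with -2.68 and an adjusted p of 0.0934 (limma), and was not called. The other 33 chaperone genes had differences between -1.03 and 0.40, the lowest adjusted p being 0.544 (limma). At an unadjusted p under 0.05 there were 4 of the 36, beside 7.74% of all tested genes. Each side of this test has 1 library labelled replicate 1, so it compares those libraries, and both calls were lost with no filter on low values (adjusted p = 0.103, limma), with no intensity trend and in each fit that left out a replicate 2 or 3 library and kept the same genes.

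**Figure D4:**
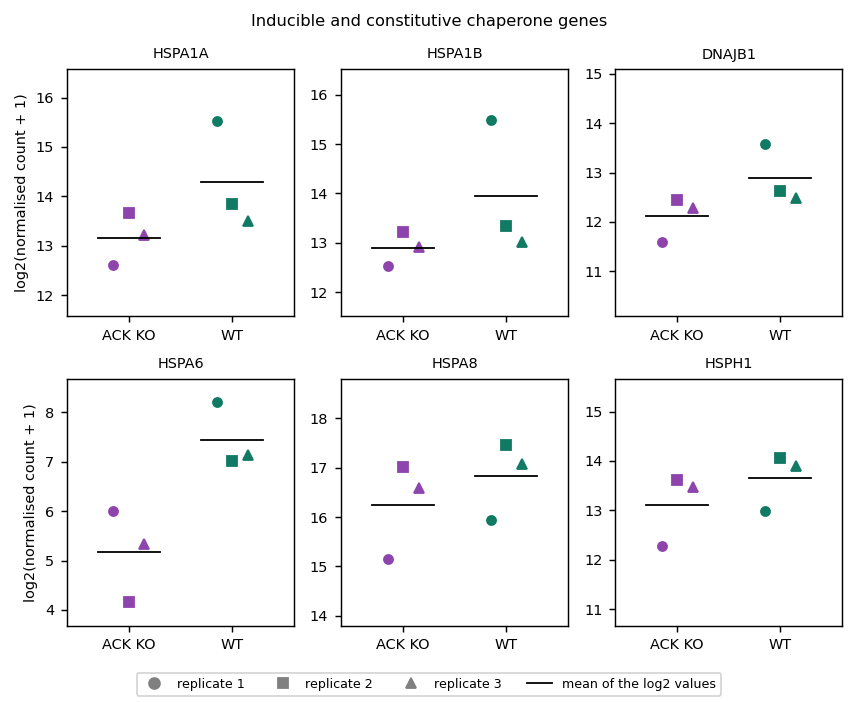
Log2(normalised count + 1) in each library (y axis, the same span in every panel) for 6 genes of the HSP70 system, with ACK KO left of WT; the symbol gives the replicate number and the bar the mean of 3 libraries. In HSPA1A, HSPA1B and DNAJB1 the circle of WT replicate 1 is the highest point and that of ACK KO replicate 1 the lowest, whereas both circles are the lowest of their groups in HSPA8 and HSPH1.

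Transcripts of HSPA1A and HSPA1B are near copies: 74.3% of the 31-base words of HSPA1A and 74.4% of those of HSPA1B occur in another gene, nearly all in each other, so the split of reads between them is uncertain. Their sum was 12239, 22391 and 17221 in ACK KO, against 93077, 25077 and 19883 in WT, with the same order of libraries. When HSPA1A and HSPA1B were summed, neither the sum nor DNAJB1 was called in the test of the replicate 1 difference between the genotypes. The ratio of HSPA1A to the constitutive HSPA8 was 0.174, 0.0977 and 0.0960 in ACK KO and 0.752, 0.0813 and 0.0832 in WT. Within each genotype it was highest in replicate 1, most of all in WT.

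Members of the HSP70 and HSP110 family other than HSPA1A and HSPA1B were lower in ACK KO in every pair, and most fell in replicate 1. HSPA9, which encodes mortalin, the HSP70 of the mitochondrial matrix, was the 1 chaperone gene called in ACK KO against WT. It lies at chr5:138553756-138575724, minus strand (GRCh38). Its values were 27455, 28669 and 26309.8 in ACK KO and 41892, 50549 and 43948 in WT. The 3 ACK KO values lay close together and below all 3 WT values, with means of 27478 ± 1179.9 in ACK KO and 45463 ± 4523 in WT (SD, n = 3 each). The log2 difference was -0.72 (SE 0.13, adjusted p = 0.0161, limma), beside the chromosome 5 median of -0.62. The call was lost in 4 of 6 fits without 1 library, with adjusted p of 0.0580 without ACK KO replicate 2, 0.0902 without ACK KO replicate 3, 0.0684 when WT replicate 2 was left out and 0.0742 for WT replicate 3 (limma). HSPA9 was also among the few genes with no call in replicate 1 (-0.09, SE 0.09, adjusted p = 0.484, limma), and the sign turned to 0.07 with libraries of equal sum.

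HSPA8, which encodes the constitutive cytosolic HSC70, had 36134, 132079.8 and 98879.8 in ACK KO, against 62679, 180156 and 138887 in WT. Replicate 1 was the lowest library of each genotype by far, and the log2 difference between replicate 1 and the others was -1.50 (SE 0.15, adjusted p = 0.000232, limma). HSPA8 was also lower in ACK KO within each number (-0.58, adjusted p = 0.00160 with the block and 0.618 without, limma). HSPH1, an HSP110 that exchanges the nucleotide of HSP70, had 4943, 12473 and 11378 in ACK KO and 8094, 17059 and 15264 in WT. It fell in replicate 1 by a similar pattern (-1.13, SE 0.09, adjusted p = 0.000153, limma). HSPA4, another HSP110, had 9017, 15297 and 13450.5 in ACK KO and 16305, 28989 and 28676 in WT, without overlap between the groups. Its genotype difference of -0.96 (adjusted p = 0.0954 without and 8.87e-05 with the block, limma) was larger than the chromosome 5 median, and it was called without WT replicate 1 (-1.23, adjusted p = 0.0220, limma). HSPA14, a ribosome-bound HSP70, had 1677, 2385 and 2304 in ACK KO and 2149, 3085 and 3108 in WT, and fell in replicate 1 (-0.50, adjusted p = 0.00139, limma). For 41.1% of HSPA8 words and 23% of HSPA14 words a second annotated gene holds the same bases, so their values may include or lose reads of pseudogenes or of a second gene entry.

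All 6 genes of HSP90 and its co-chaperones fell in replicate 1, where 23.4% of all tested genes did. Their median log2 difference was -0.98. With the block 4 of the 6 were called lower in ACK KO, where 20% of all tested genes were. HSP90AB1, the constitutive cytosolic HSP90, had 106652, 233433 and 194416 in ACK KO, against 142608, 277949 and 234119.6 in WT. Replicate 1 was the lowest of each genotype (-0.92, SE 0.12, adjusted p = 0.000665, limma), and each ACK KO value lay below the WT value of its number (-0.31, adjusted p = 0.00844 with the block, limma). HSP90AA1, the inducible form, had 46181, 139326 and 121386 in ACK KO and 87165, 130668 and 110342 in WT. Its genotype difference had opposite signs between the numbers, -0.92 in replicate 1, 0.09 in replicate 2 and 0.14 in replicate 3, and was not called (-0.23, adjusted p = 0.379 with the block, limma). The ratio of HSP90AA1 to HSP90AB1 was 0.433, 0.597 and 0.624 in ACK KO and 0.611, 0.470 and 0.471 in WT. Replicate 1 had the lowest ratio among the ACK KO libraries and the highest among the WT libraries. HSP90AA1 itself was lowest in replicate 1 of each genotype. The fall of HSP90AA1 in replicate 1 was -0.98 (adjusted p = 0.00528, limma) and -0.46 without ACK KO replicate 1 (adjusted p = 0.0681, limma).

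Among the co-chaperones, CHORDC1, which binds HSP90 through its CHORD domains, had 2662, 7660.2 and 7203 in ACK KO, against 3872, 10986 and 9813 in WT. It had the smallest p of all 36 genes in replicate 1 (-1.45, SE 0.08, adjusted p = 0.000101, limma) and was lower in ACK KO in each number (-0.50, adjusted p = 0.000834 with the block, limma). AHSA1, which activates the ATPase of HSP90, had 2624, 6772 and 5232 in ACK KO and 2240.4, 6832 and 6133 in WT. It fell in replicate 1 as much (-1.36, SE 0.13, adjusted p = 0.000182, limma) with no genotype call (-0.0046, adjusted p = 0.973 with the block, limma). STIP1, which links HSP70 to HSP90, had 9074, 20265 and 17062 in ACK KO and 12284, 24577 and 21767 in WT. PTGES3, the co-chaperone p23, had 16893, 34589 and 31408 in ACK KO and 21081, 41269 and 38694 in WT. Both fell in replicate 1 (-0.97 and -0.94) and were called lower in ACK KO with the block (-0.36 and -0.29, adjusted p = 0.00337 and 0.00531, limma).

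The mitochondrial chaperonin genes HSPD1 (HSP60) and HSPE1 (HSP10) form 1 folding chamber and share a promoter region, yet their fall in replicate 1 differed in size. HSPE1 had 4634, 16769 and 13022 in ACK KO, against 5204, 23636 and 19604 in WT. This was the largest fall among the 36 (-1.86, SE 0.13, a 3.63-fold lower value, adjusted p = 0.000135, limma). HSPD1 had 47942, 92928 and 77301 in ACK KO and 56390.2, 102491 and 86926 in WT, also lowest in replicate 1 (-0.78, SE 0.11, adjusted p = 0.000812, limma). The ratio of HSPE1 to HSPD1 was 0.0967, 0.180 and 0.168 in ACK KO and 0.0923, 0.231 and 0.226 in WT. It was lowest in replicate 1 of each genotype, and in replicates 2 and 3 it was lower in ACK KO than in WT. Both genes were called lower in ACK KO with the block (-0.18 and -0.42, adjusted p = 0.0389 and 0.00897, limma) and not without it. HSPE1 was also called with no block when both replicate 1 libraries were left out (-0.54, adjusted p = 0.0300, limma), and the blocked call of HSPD1 was lost with libraries of equal sum. Reads of both may be shared with other gene entries, since 46.5% of HSPD1 words and 31.5% of HSPE1 words occur elsewhere. HSPB1, the small heat shock protein HSP27, which holds unfolded proteins without ATP, had 3611, 6729 and 6661 in ACK KO and 2999, 6054 and 5313 in WT. It fell in replicate 1 (-0.90, adjusted p = 0.000166, limma) and was 1 of the 2 genes higher in ACK KO in every pair (0.25, adjusted p = 0.0221 with the block, limma), below the chromosome 7 median of 0.39.

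All 8 subunit genes of the CCT chaperonin fell in replicate 1, where 23.4% of all tested genes did. Their log2 differences ran from -1.12 to -0.40. In all 3 pairs 7 of the 8 were lower in ACK KO, where 34% of all tested genes were. CCT assembles from 8 different subunits in equal number, so the genes can be read side by side. With no genotype term the calls of CCT4, CCT5 and CCT8 were lost (adjusted p = 0.226, 0.119 and 0.189, limma). TCP1 had 16134, 35101 and 31135 in ACK KO, against 19916, 48571 and 43391 in WT, and had the largest fall of the 8 in replicate 1 (-1.12, SE 0.09, adjusted p = 0.000153, limma). CCT4 had 16086, 22921 and 20606 in ACK KO and 22411, 30221 and 27484 in WT, the smallest fall (-0.40, adjusted p = 0.00520, and 0.0544 without ACK KO replicate 1, limma). CCT8, with 24343, 37522 and 34213 in ACK KO and 36377, 50907 and 45391 in WT, followed at -0.48. For these last genes WT replicate 1 was close to the ACK KO values of replicates 2 and 3.

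Between the genotypes, 6 subunit genes were called lower and 1 higher with the block (limma), where 20% and 19.7% of all tested genes were. Without the block 0 were called, where 10.3% of all tested genes were. CCT5, on chromosome 5, had 17549.8, 33526 and 28277 in ACK KO and 27726, 54897 and 47601 in WT, the largest genotype difference of the 8 (-0.71, adjusted p = 0.000144 with the block and 0.260 without, limma). CCT6A, on chromosome 7, had 21659, 40455 and 32882 in ACK KO and 18711, 34074 and 29884 in WT and was the 1 subunit higher in ACK KO in every pair (0.20, adjusted p = 0.0275 with the block, limma). The ratio of CCT5 to CCT6A was 0.810, 0.829 and 0.860 in ACK KO and 1.48, 1.61 and 1.59 in WT. It did not overlap between the groups and varied little with the replicate number. CCT5 and CCT6A have the lowest and the highest genotype difference of the 8, so the gap in their ratio is no separate result. The median log2 differences of chromosomes 5 and 7 were -0.62 and 0.39, and the part of position in the ratio was not tested. The other 6 subunits, on chromosomes whose medians lie between -0.09 and 0.01, had differences from -0.48 for CCT8 to -0.18 for CCT3, and 5 of them were called lower with the block. CCT2 had 10583, 19559.6 and 16931 in ACK KO and 12858, 26279 and 23059.9 in WT, and CCT7 had 11689, 22883 and 20241 in ACK KO and 13407, 30427 and 26192 in WT. CCT3 had 18636, 31824 and 26461 in ACK KO and 19344, 37060.5 and 31500.0 in WT and was not called between the genotypes (adjusted p = 0.0614 with the block, limma).

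**Figure D5:**
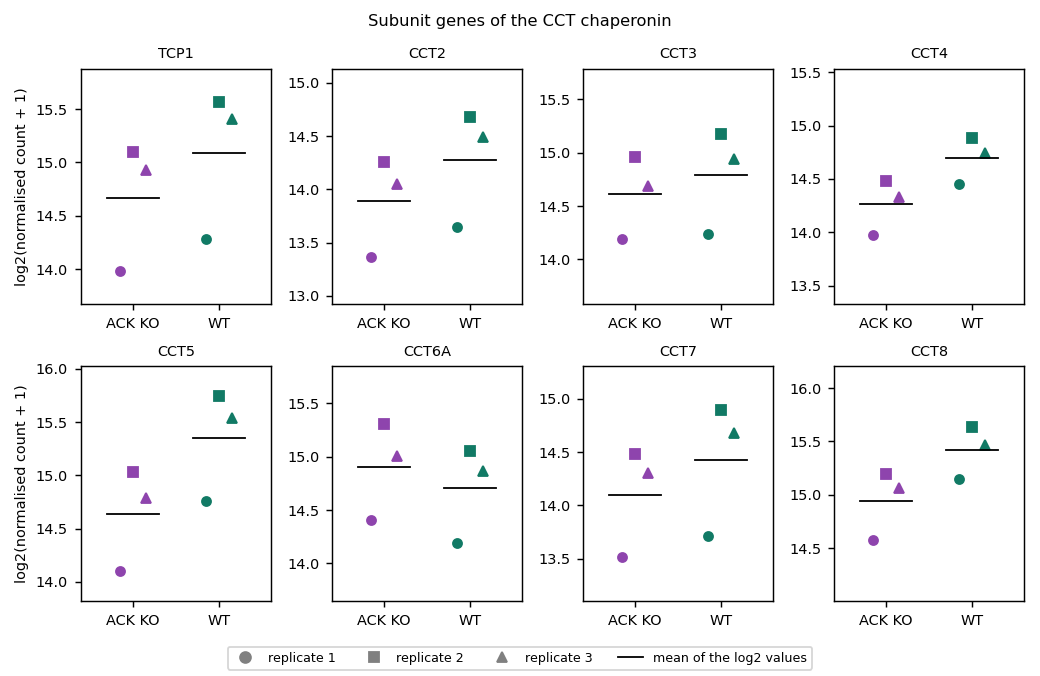
Log2(normalised count + 1) in each library (y axis, the same span in every panel) for the 8 CCT subunit genes, with ACK KO left of WT; the symbol gives the replicate number and the bar the mean of 3 libraries. Circles of replicate 1 are lowest in each group of each panel, and the ACK KO mean lies below the WT mean in all panels but CCT6A.

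DNAJ proteins bring clients to HSP70 and start its ATPase. Of the 8 DNAJ genes 6 fell in replicate 1, where 23.4% of all tested genes did. With the block 2 of the 8 were called lower in ACK KO, a share near the 20% of all tested genes. DNAJA1, a cytosolic type I member, had 7134, 16752 and 14473 in ACK KO, against 6882, 21902 and 17838 in WT, with replicate 1 lowest in both (-1.32, SE 0.12, adjusted p = 0.000182, limma). DNAJC2, which works on ribosomes with HSPA14, had 3993, 8010.2 and 7179 in ACK KO and 4172, 9557 and 7945 in WT (-0.99 in replicate 1, adjusted p = 0.000207, limma). DNAJA2, the close relative of DNAJA1, had 2747, 4321 and 3964 in ACK KO and 3195, 5080.5 and 4876 in WT, with a smaller fall (-0.62, adjusted p = 0.000528, limma). DNAJC7, which carries TPR repeats that bind HSP70 and HSP90, had 4816, 7019 and 6562 in ACK KO and 7570.1, 10188 and 8924 in WT, without overlap. It had the larger genotype difference of the called pair (-0.54, adjusted p = 0.000862 with the block and 0.135 without, limma). Its fall in replicate 1 (-0.41, adjusted p = 0.00532, limma) was not called without ACK KO replicate 1 (adjusted p = 0.0663, limma). DNAJA2 was the other one called with the block (-0.25, adjusted p = 0.0190, and 0.105 with libraries of equal sum, limma).

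DNAJA3, the mitochondrial partner of mortalin, had 4907, 6173 and 5530.0 in ACK KO and 5252, 6566 and 5879 in WT, with a fall in replicate 1 that just passed the threshold (-0.25, adjusted p = 0.0421, limma). The call was lost with no intensity trend, with equal sums, with no genotype term, against replicate 3 alone and without ACK KO replicate 1, ACK KO replicate 2, WT replicate 1 or WT replicate 2, where its adjusted p lay between 0.101 and 0.282 (limma). DNAJB6, which keeps aggregating proteins apart, had 5453, 7311 and 7569 in ACK KO and 5279.7, 7551 and 6638 in WT (-0.44 in replicate 1, adjusted p = 0.00294, limma). DNAJB4 had 1235, 1297 and 1631 in ACK KO and 1272, 1057 and 1071 in WT and was called in neither comparison. Replicate 1 differed from replicates 2 and 3 by -0.24 in ACK KO and by 0.26 in WT for DNAJB4. It had the highest genotype difference of the 36 (0.29), which was called higher in ACK KO without both replicate 1 libraries (0.45, adjusted p = 0.0429, limma).

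BAG proteins release the nucleotide, and so the client, of HSP70. All 3 BAG genes fell in replicate 1, where 23.4% of all tested genes did. BAG1 had 1569, 3509 and 2855 in ACK KO, against 1433, 3996 and 3087 in WT (-1.15, SE 0.14, adjusted p = 0.000364, limma). BAG2, a brake on the ubiquitin ligase CHIP, had 2761, 5487 and 4546 in ACK KO and 2874, 6904 and 5954 in WT (-1.01, adjusted p = 0.000325, limma). BAG3, an HSF1 target that directs clients to autophagy, had 1238, 2076 and 1986 in ACK KO and 1455, 2016 and 2014 in WT (-0.59, adjusted p = 0.00146, limma). Replicate 1 was the lowest library of each genotype in all 3 genes, and of the 3 BAG2 was called lower in ACK KO with the block (-0.26, adjusted p = 0.0412, and 0.169 with libraries of equal sum, limma). HSF1 itself had 3849, 3432 and 2985 in ACK KO and 3603, 3762 and 3146 in WT. The libraries overlapped, and HSF1 was called in neither comparison (-0.04 between the genotypes, adjusted p = 0.710 with the block; 0.17 in replicate 1, adjusted p = 0.232, limma). The mRNA level of HSF1 says nothing of its activity, which is set on the protein.

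Levels were compared between genes per kilobase of the median length of their protein-coding transcripts. HSP90AB1 was the most abundant, with 68185 ± 24850.2 per kb in ACK KO and 83515 ± 26428 per kb in WT (SD, n = 3 each). HSPA8 followed with 44427 ± 24314 in ACK KO and 63493 ± 29739.7 in WT. Next in ACK KO came HSPD1, with 30595 ± 9609 in ACK KO and 34470.2 ± 9866 in WT, HSP90AA1, with 29699 ± 14348 in ACK KO and 31758 ± 6319 in WT, PTGES3, with 21552 ± 7358 in ACK KO and 26272 ± 8571 in WT, and HSPE1, with 20131 ± 10901 in ACK KO and 28329.8 ± 16999 in WT, where HSPE1 stood above PTGES3. The ranges of mean ± SD of neighbours among the genes just named overlapped, and their order was not tested. HSP90AB1 lay above HSPA8 in every library. The least abundant were BAG2, BAG3 and DNAJB4, the last with 464 ± 71.3 per kb in ACK KO and 379 ± 40.2 per kb in WT. The CCT subunits spanned 7688 (CCT2) to 16619.7 (CCT8) per kb in ACK KO and 10158 (CCT2) to 22950.3 (CCT8) per kb in WT. Pseudogene copies can shift the levels of HSP90AB1, HSPA8, HSPD1 and HSP90AA1, of whose words 40.1%, 41.1%, 46.5% and 36.1% occur in other genes.

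Other genes of the same systems, 82 listed and 76 tested, did not all follow. Between the genotypes 3 were called lower and 0 higher, where 4.96% of all tested genes were lower and 5.37% higher. With the block 25 were lower and 9 higher, where 20% and 19.7% were. HSPA6, a strictly inducible HSP70, had 63.2, 16.9 and 39.6 in ACK KO, against 294, 128 and 139.7 in WT. The groups did not overlap (-2.28, SE 0.55, adjusted p = 0.0473, and 0.000755 with the block, limma), and replicate 1 was the highest library of each genotype (1.19, adjusted p = 0.0201, limma), the opposite of HSPA8. HSPA7 is a near copy of HSPA6, so reads may have been split between them. The other genes called lower were DNAJC21, a ribosome assembly factor (-0.55, adjusted p = 0.0233, limma), and GRPEL2, a nucleotide exchange factor of mortalin (-0.75, adjusted p = 0.00806, limma), both on chromosome 5. DNAJC21 had 3998, 4470.2 and 4342 in ACK KO and 6046, 6431 and 6309.9 in WT. GRPEL2 had 1926, 1866 and 1876 in ACK KO and 3029, 3302 and 3236 in WT.

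In replicate 1, 36 of the 76 fell and 10 rose, where 23.4% and 21.9% of all tested genes did, with a median log2 difference of -0.26. Of the 11 other HSP90 co-chaperones 10 fell, PPID (-0.89, adjusted p = 0.000202, limma) and FKBP5 (-0.69, adjusted p = 0.000252, limma) with the smallest p. Of the 10 prefoldin and chaperonin cofactors, of which prefoldin hands actin and tubulin to CCT, 6 fell and 1 rose. PFDN6 (-1.06, adjusted p = 0.000213, limma) had the smallest p of them. Nucleotide exchange factors fell in 4 of 7 cases, led by GRPEL1 (-1.34, adjusted p = 0.000182, limma), the other exchange factor of mortalin. Other DNAJ genes fell in 7 of 21 cases and rose in 3, and mitochondrial protein quality control genes fell in 5 of 8 cases and rose in 1, the protease gene LONP1 (0.68, adjusted p = 0.000300, limma). Other HSP70 and HSP110 genes fell in 1 of 7 cases and rose in 3: HSPA6, HSPA13 and HYOU1. The chaperones of the endoplasmic reticulum HSPA5 (0.10, adjusted p = 0.464, limma) and HSP90B1 (-0.20, adjusted p = 0.0754, limma) were not called. The remaining lists counted 1 fall and 0 rises among 2 other HSP90 genes, 0 and 0 among 2 other small heat shock genes, 1 and 1 among 3 HSF family genes and regulators, and 1 and 1 among 5 other stress-responsive genes, where VCP fell (-1.06, adjusted p = 0.000179, limma).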

How the data were processed

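Polyadenylated RNA of 6 K562 libraries was sequenced from stranded libraries with UMI adapters, and RNA integrity was 10 for every sample, per the labels' protocols. Per the submitters' processing notes, the build was GRCh38 and the tools were DESeq2 1.26.0, R 3.6.1, Salmon 1.1.0, STAR 2.7.2b, FastQC 0.11.7 and SAMtools, with no roles named. The sources used here give no annotation release or counting setting, nor whether the identifiers were used, nor how reads of near-identical genes were split. The authors deposited a signal per gene, named normalised counts, which are neither whole reads nor logarithms, so no counting error can be given.

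Genes reaching 10 in 3 or more of the 6 libraries were kept (16658), and log2(value + 1) was fitted in limma 3.58.1 (R 4.3.3) with an intensity trend and Benjamini-Hochberg adjustment over all tested genes, threshold 0.05. The fits were ACK KO minus WT, replicate 1 minus replicates 2 and 3 with genotype as covariate, and the difference of that replicate effect between genotypes; fold changes understate those of low genes. They were tested on simulated data. P-values measure the spread between these libraries. Deviations from the group mean of same-numbered libraries correlated at 0.699, 0.521 and 0.342 across genes, above the limit of 0.1 for each, so the number was used as a block in a second genotype fit; unlike numbers 2 and 3 gave 0.257 and 0.281. Alternatives were other pseudocounts, no filter, other scalings, no trend, HSPA1A and HSPA1B summed, and leaving out libraries. Symbols matched 19392 of 19498 identifiers, and positions are from GENCODE 29. Promoters are from RefSeq (GRCh38.p14), with a window for 33 of 36 genes; words shared between genes are 31 bases of GENCODE 29 transcripts. The 36 genes, the lists of other genes and the alternatives were chosen with earlier results of these data known. Values in every library are given for genes called in a comparison among the 20 smallest p, for the smallest p of each class and, beyond that rule, for all other members, HSPA6, DNAJC21 and GRPEL2; other genes are named, up to 2 a list by smallest p, with HSPA13, HYOU1, HSPA5, HSP90B1 and LONP1 added after their values were seen.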

Additional observations from a re-analysis of the deposited data

Results flagged for a closer look

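The replicate 1 difference was itself different between ACK KO and WT (limma interaction term, adjusted p at or under 0.05) for 5 of 16658 genes, and each value below is the log2 difference within ACK KO minus that within WT. HSPA1B had -2.82 (adjusted p = 0.0380, limma) and DNAJB1 -1.81 (adjusted p = 0.0439, limma), with WT replicate 1 the highest and ACK KO replicate 1 the lowest library of each gene. HECW2, a ubiquitin ligase gene, had -2.05 (adjusted p = 0.0350, limma), with values of 2287, 2445 and 2463 in ACK KO and 3409, 922 and 846 in WT. The read-through gene ARPIN-AP3S2 had 5.80 (adjusted p = 0.0299, limma), with 86.9, 409.7 and 374 in ACK KO and 0, 241 and 257 in WT. The gene ENSG00000270149 had 13.21 (adjusted p = 0.0218, limma), with 99.1, 0 and 0 in ACK KO and 0, 90.4 and 97.7 in WT. The fitted values of these last genes depend on the pseudocount, since each is listed at 0 in some library. Each of the 5 rests on 1 replicate 1 library per genotype.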

How the results depend on the processing

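In ACK KO against WT, the pseudocounts, the filter, median-ratio scaling and the trend kept the sign of every chaperone gene. With the replicate number as a block, 20 chaperone genes were lower and 2 higher, and 6612 tested genes were called (limma), including all 1721 called without it. The block with an equal sum per library gave 17 lower, 3 higher and 6559 tested genes, with the call lost for HSPD1, DNAJA2 and BAG2. Without both replicate 1 libraries there were 13 lower, 1 higher and 4731 tested genes, and with the block as well 25, 4 and 7906. Leaving out 1 library gave 0 to 2 chaperone genes lower, 0 higher and 726 to 2183 tested genes. An equal sum turned the sign, with and without the block, for AHSA1 (0.095), DNAJA3 (0.0081), BAG1 (0.044), BAG3 (0.029) and HSF1 (0.062). Leaving out both replicate 1 libraries did so for HSP90AA1 (0.12) and BAG3 (0.011), with and without the block. Over the fits without 1 library the log2 difference changed sign for 16 chaperone genes: it ran from -0.53 to 0.27 for HSP90AA1, -0.59 to 0.020 for HSP90AB1, -0.51 to 0.39 for AHSA1, -0.60 to 0.030 for PTGES3, -0.057 to 0.55 for HSPB1, -0.43 to 0.092 for HSPD1, -1.10 to 0.14 for HSPE1, -0.72 to 0.16 for DNAJA1, -0.078 to 0.21 for DNAJB6, -0.51 to 0.15 for DNAJC2, -0.45 to 0.038 for CCT3, -0.058 to 0.45 for CCT6A, -0.49 to 0.28 for BAG1, -0.65 to 0.026 for BAG2, -0.23 to 0.17 for BAG3 and -0.13 to 0.057 for HSF1. TNK2 stayed below 0, from -0.32 to -0.05.

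For replicate 1, leaving out 1 library gave 26 to 31 chaperone genes lower, 0 to 3 higher and 4030 to 7380 tested genes. Sign changes there were -0.82 to 1.86 for HSPA1A, -0.52 to 2.30 for HSPA1B, -0.77 to 1.04 for DNAJB1 and -0.24 to 0.26 for DNAJB4. An equal sum per library made 1 gene higher, HSF1, and turned HSPA9 to 0.066. Against replicate 3 alone 1 was higher, HSF1 again, and DNAJB4 turned to -0.077. With no genotype term 2650 tested genes were called and 23 chaperone genes were lower, with the call lost for HSPA14, HSPA4, DNAJA3, DNAJC7, CCT4, CCT5 and CCT8.

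For the difference of the replicate 1 effect between genotypes, a pseudocount of 0.5 called 1 chaperone gene. No filter called 0 of them and 1 tested gene, no trend 0 and 3, and HSPA1A and HSPA1B summed 0 and 3. Leaving out 1 replicate 2 or 3 library called 0 chaperone genes and 0 tested genes, with adjusted p of 0.390 to 0.569 for HSPA1B and 0.432 to 0.594 for DNAJB1 (limma). When the filter was also taken from the remaining 5 libraries, 3 chaperone genes (HSPA1A, HSPA1B and DNAJB1) were called in each of these fits, among 16, 25, 20 and 42 tested genes, with adjusted p of 9.33e-05 to 0.00202 for HSPA1B. Only the genes kept by the filter differ between these fits; the cause was not tested. All alternatives for this difference, and the block combined with another choice, were chosen after seeing the data. Depth behind the values is unknown, so limits rest on the spread of 3 libraries per genotype. Fits of replicate 1 hold 1 such library per genotype, and where a fit leaves 1 library in an arm, that library is assumed to vary like the others.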
